A study of Homo sapiens with 6 samples.

Results

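The genes described here are 35 that make cholesterol and fatty acids or set their supply, out of 60483 gene ids counted in each library. They were listed by name, in 5 groups: 7 mevalonate enzymes, 11 sterol enzymes from squalene on, 5 regulators of the SREBP transcription factors, 4 genes of sterol transport and uptake control, and 8 fatty acid enzymes. All 35 symbols matched 1 Ensembl id each, and all 35 passed the filter on low counts. Poly(A) RNA came from T98G, an established human glioblastoma cell line, grown in DMEM with 10% fetal bovine serum. Untreated cells are called NT. Cells labelled shSRPK1 were transiently transfected by Lipofectamine 2000 with a hairpin against the splicing kinase SRPK1 in pLKO.1, and cells labelled oeSRPK1 received full-length SRPK1 cDNA in the expression vector pcDNA3.1 by the same reagent. Each group has 2 libraries, and a transfected control was not analysed here, so in both comparisons with NT the construct and the transfection cannot be told apart.

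Cells build cholesterol from acetyl-CoA through mevalonate, isoprenoid diphosphates, squalene and lanosterol, and they build fatty acids from the same acetyl-CoA through malonyl-CoA. SREBP transcription factors switch on both routes: when membrane sterol is low, SCAP carries the SREBP precursors from the endoplasmic reticulum to the Golgi for cleavage, and INSIG proteins hold SCAP back when sterol is ample. Glioblastoma cells are known for a high demand for cholesterol and for saturated and unsaturated fatty acids, and when sterol is in excess the oxysterol receptor LXR switches on export genes such as ABCA1 and the ubiquitin ligase MYLIP.

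The promoters of 31 of the 35 genes were found in RefSeq's table (GRCh38.p14), as windows from 250 bases before to 50 bases after each start. Both strands were searched for CCAAT, the letters that NF-Y binds, for GGGCGG, a box of Sp1, for TCACNCCAC, a form of the sterol regulatory element that SREBP binds, and for the palindrome TCACGTGA, an E-box that SREBP can also bind. None of these words holds another, and overlapping matches were all kept. The 250 bases before the start are printed for 4 genes, 5′ to 3′ on the gene's own strand, with CCAAT (read as ATTGG on the opposite strand), TCACNCCAC and TCACGTGA in capitals. SREBF2 is shown as the only member with TCACNCCAC in its window, INSIG1 as the only member with TCACGTGA, and STARD4 and MSMO1 as genes higher in shSRPK1 that hold several CCAAT letters. The positions are chr22:41832855-41833104 on the plus strand, chr7:155297628-155297877 on the plus strand, chr5:111512536-111512785 on the minus strand and chr4:165327419-165327668 on the plus strand.
SREBF2: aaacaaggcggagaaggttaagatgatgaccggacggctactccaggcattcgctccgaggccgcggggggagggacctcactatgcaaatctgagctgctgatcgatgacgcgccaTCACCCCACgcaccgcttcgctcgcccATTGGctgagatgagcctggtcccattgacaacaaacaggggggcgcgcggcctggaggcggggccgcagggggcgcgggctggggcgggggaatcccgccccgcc
INSIG1: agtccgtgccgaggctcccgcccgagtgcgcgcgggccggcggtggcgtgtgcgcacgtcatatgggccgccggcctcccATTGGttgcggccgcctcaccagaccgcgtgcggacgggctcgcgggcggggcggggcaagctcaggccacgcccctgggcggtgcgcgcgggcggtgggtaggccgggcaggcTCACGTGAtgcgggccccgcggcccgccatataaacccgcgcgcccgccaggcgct
STARD4: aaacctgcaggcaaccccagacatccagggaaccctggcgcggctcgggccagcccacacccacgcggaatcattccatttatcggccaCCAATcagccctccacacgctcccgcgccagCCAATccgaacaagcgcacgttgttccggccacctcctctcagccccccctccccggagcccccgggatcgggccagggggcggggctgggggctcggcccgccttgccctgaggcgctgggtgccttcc
MSMO1: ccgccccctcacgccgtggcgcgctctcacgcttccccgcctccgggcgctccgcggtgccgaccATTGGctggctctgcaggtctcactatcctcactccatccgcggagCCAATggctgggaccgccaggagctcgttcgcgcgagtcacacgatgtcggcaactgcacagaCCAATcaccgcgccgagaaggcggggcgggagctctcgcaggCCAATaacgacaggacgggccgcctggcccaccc
In SREBF2 the match TCACCCCAC starts 133 bases before the start, 18 bases away from the CCAAT match. CCAAT was found for 22 of the 31 genes (71.0%), against 39.7% of 27305 genes with a window. GGGCGG was found for 30 of 31, against 48.3% of all genes, TCACNCCAC for 1 of 31, against 1.39%, and TCACGTGA for 1 of 31, against 1.18%. A match describes letters and is not evidence of binding. Only these exact words were searched, so a window without a match may still hold another form of the element.

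Gene reads ranged from 3891549 in oeSRPK1 2 to 22691215 in oeSRPK1 1, and the other 4 libraries held 9891606 to 13650909. A count of 3 was worth 0.135 normalised CPM (read counts scaled to a common library size) in the deepest library and 0.776 in the shallowest. Reads of SRPK1 itself stood at 152.5 and 140.4 CPM in NT 1 and NT 2, 113.1 and 140.1 in shSRPK1 1 and 2, and 190.3 and 168.0 in oeSRPK1 1 and 2. The hairpin libraries were 0.21 ± 0.14 lower than NT on the log2 scale (SE, n = 2 per group, edgeR adjusted p = 0.360) and the expression libraries 0.29 ± 0.14 higher (edgeR adjusted p = 0.175), so neither passed the test, and shSRPK1 2 was level with NT 2. Set against each other, the expression libraries were 0.50 ± 0.14 above the hairpin libraries, which passed (edgeR adjusted p = 0.0377). The group names therefore stand for the libraries so labelled. Of 8 glioma-cell markers, CD44, VIM and SOX9 were abundant. NES and OLIG2 were low, at 0.749 to 1.83 and 0.807 to 3.22 CPM before TMM scaling, SOX2 and S100B had 0 reads in all 6 libraries, and GFAP had at most 1 read per library. Markers of liver, fat, blood and endothelial cells summed to at most 18 reads per list and library. Skeletal muscle markers, 8 in all, summed to 0.505 to 1.10 CPM (also before scaling) in both NT libraries and shSRPK1 1 and to 10.8 CPM in shSRPK1 2. Their sum was 192 CPM in oeSRPK1 1, with 1 of the 8 at 0, and 2330 CPM in oeSRPK1 2, with none of the 8 at 0. Mitochondrial transcripts took 4.96% to 5.41% of gene reads in NT and shSRPK1, and 2.84% and 3.14% in oeSRPK1. The part of either in the results was not tested. The replicate counts of shSRPK1 were also farther apart than those of other groups, with a chi-square per degree of freedom of 45.2 against 4.44 in NT and 8.04 in oeSRPK1. The series calls the libraries biological replicates but does not mention separate cultures, so p-values measure only how far these samples spread, and that spread may be technical. In bulk RNA, fewer cells that express a gene and less RNA per cell cannot be told apart.

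In untreated T98G cells the genes with most RNA per length sat at the entrance of the fatty acid route and at its desaturation step. ACLY, which splits citrate into acetyl-CoA in the cytosol, averaged 40.9 CPM per kb of exonic sequence in NT, and SCD, the desaturase that makes oleate, averaged 35.8. The mevalonate enzymes FDPS (23.5 CPM per kb) and PMVK (22.5 CPM per kb) came next, then the lysosomal cholesterol exporter NPC1 (17.5 CPM per kb). At the low end were MVK, TM7SF2 and CYP51A1, with 0.995, 0.934 and 0.867 CPM per kb. In NT, FDPS held 24.4 and 22.7 CPM per kb and PMVK 24.4 and 20.7, so these neighbours did not separate, and neither did MVK and TM7SF2. The CYP51A1 value is uncertain, since 86.0% of its exonic bases are shared with other GENCODE 29 genes, mostly on the same strand, and 3 named pseudogenes exist. ACAT2 shares 69.7% of its exonic bases with genes on the opposite strand, and FDPS has 8 named pseudogenes.

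**Figure D1:**
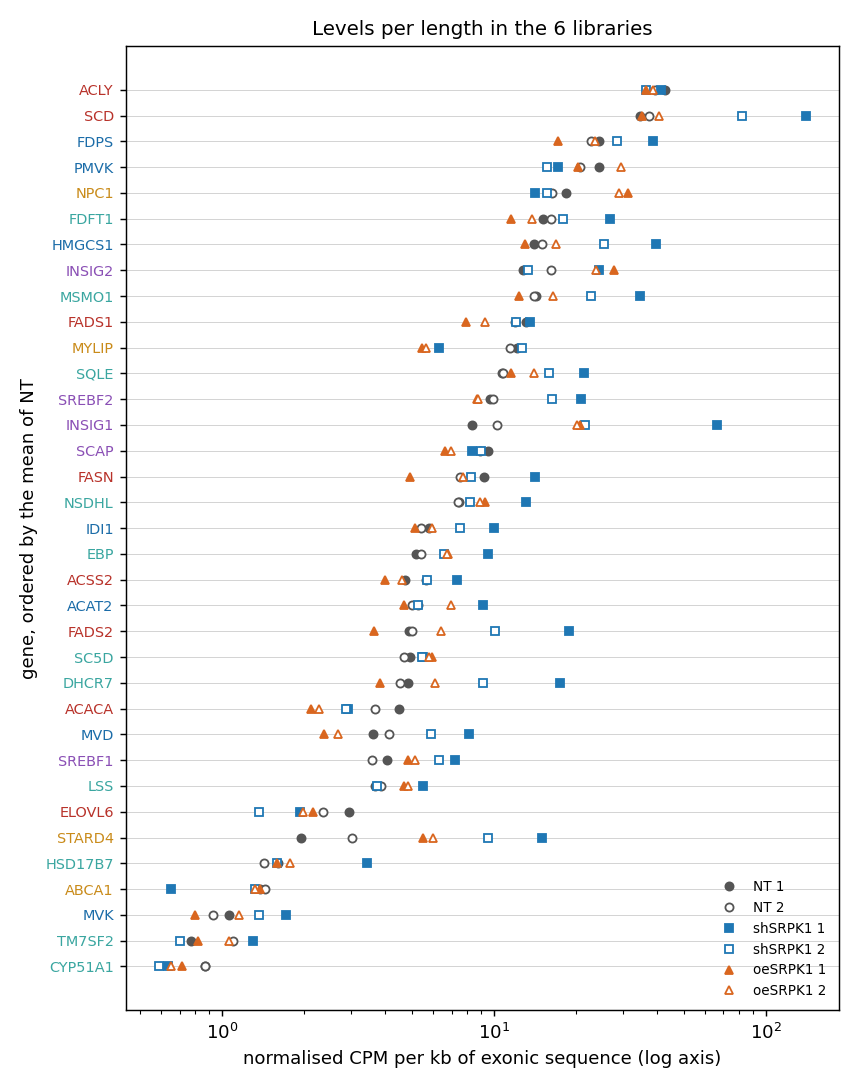
Normalised CPM per kb of exonic sequence (log axis) for the 35 genes, ordered by the mean of NT, with 1 symbol per library (circles NT, squares shSRPK1, triangles oeSRPK1, filled for replicate 1). ACLY and SCD head the list in NT at 40.9 and 35.8 CPM per kb, and SCD reached 141 and 82.1 CPM per kb in the shSRPK1 libraries.

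Relative to NT, the hairpin libraries held more RNA for much of the sterol route, its SREBP factors and SCD. 10 of the 35 genes rose and 0 fell, where 5.43% of all 14732 tested genes were called higher and 3.75% lower (9.18% either way). DESeq2 called 12 higher and 0 lower, and its share of all tested genes is not given here. An unadjusted edgeR p under 0.05 in either direction was found for 20 of the 35, against 28.8% of all tested genes (4237). The genes that rose were HMGCS1, MVD, IDI1, SQLE, MSMO1, DHCR7, SREBF1, SREBF2, STARD4 and SCD. The median log2 fold change was 0.51 over the 35 genes and 0.01 over all tested genes. Both shSRPK1 libraries lay above both NT libraries for 20 genes and below them for 6, where 28.8% and 28.7% of all genes did so. When either shSRPK1 library was left out, all 10 called genes kept the sign of their log2 fold change. Such a fit lacks the spread between the shSRPK1 replicates, which differed most. Here and below, it therefore cannot show whether a call would withstand that spread. Leaving out NT 1, NT 2, oeSRPK1 1 or oeSRPK1 2 left 0, 1, 1 and 2 of the 10, with edgeR adjusted p-values of 0.0857 to 0.310, 0.0402 to 0.259, 0.0377 to 0.109 and 0.0355 to 0.109 in that order. A fit of the NT and shSRPK1 libraries alone kept only STARD4. Thinning every library to the depth of the shallowest lost MVD, IDI1 and DHCR7, upper-quartile scaling lost IDI1, and limma-voom with a shared spread lost DHCR7.

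The expression libraries differed from NT at few of these genes. STARD4 and NPC1 rose and SCAP, MYLIP, ACACA and FADS1 fell, so 2 of 35 were called higher and 4 lower, where 11.2% and 9.45% of all tested genes were. Those shares are near or under the background and are no result about the set. Its median log2 fold change was -0.03, against -0.0007 over all genes. Both oeSRPK1 libraries lay above both NT libraries for 10 genes and below them for 12, against 35.9% and 34.6% of all genes. Without NT 1, NT 2, oeSRPK1 1 or oeSRPK1 2, 0, 1, 0 and 2 of the 6 calls held, and without either shSRPK1 library all 6 did. MYLIP was not called by limma-voom with a shared spread. Without either shSRPK1 library further members were called. The share of all tested genes called in those fits is not given here, so no result about the set follows.

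Set directly against the hairpin libraries, the expression libraries were lower for 15 of the 35 genes and higher for 1, where 11.3% and 11.5% of all tested genes were called lower and higher (22.8% either way). The gene that rose was NPC1. Those that fell were HMGCS1, MVD, IDI1, FDPS, FDFT1, SQLE, MSMO1, DHCR7, SREBF1, SREBF2, STARD4, SCD, ACSS2, FADS1 and FADS2. The median was -0.59, against -0.002 over all genes, and the groups did not overlap for 21 genes that were lower and 5 that were higher in oeSRPK1, against 30.5% and 31.8% of all genes. Without NT 1, NT 2, shSRPK1 1, shSRPK1 2, oeSRPK1 1 and oeSRPK1 2, 7, 7, 15, 16, 0 and 5 of the 16 calls held. A fit of these 4 libraries alone kept 6 of the 16, which were HMGCS1, MVD, SREBF2, STARD4, SCD and NPC1. Thinning lost SQLE, SREBF1, ACSS2 and FADS2, DESeq2 lost SREBF1, and both SREBF1 and FADS2 were lost when limma-voom gave each group its own spread. Each pair of comparisons shares 2 libraries, so none is independent of the other two.

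**Figure D2:**
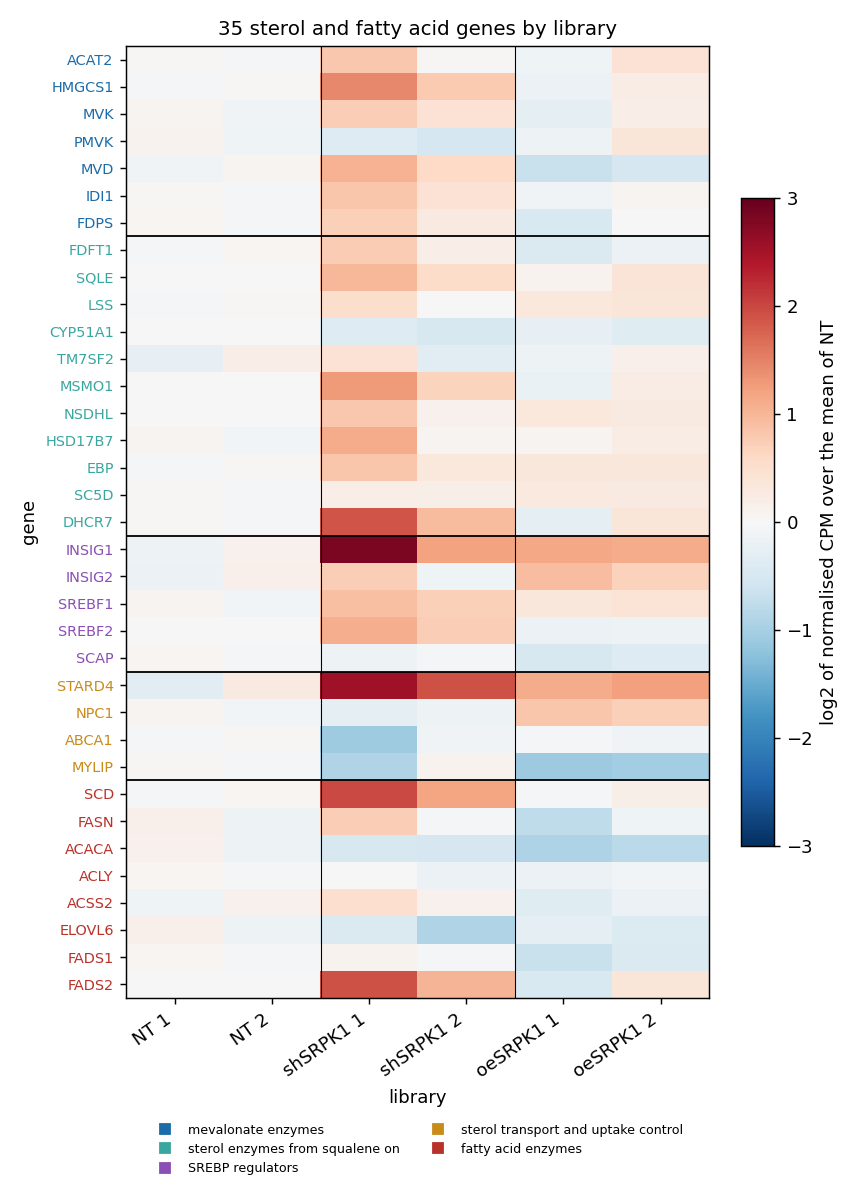
Level of each of the 35 genes in each library, as log2 of normalised CPM (plus 0.5) over the mean of NT, with gene names coloured by group. The shSRPK1 1 column is reddest, with medians over the genes of 0.75 there and 0.14 in shSRPK1 2, against -0.17 and 0.20 in oeSRPK1 1 and 2.

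**Figure D3:**
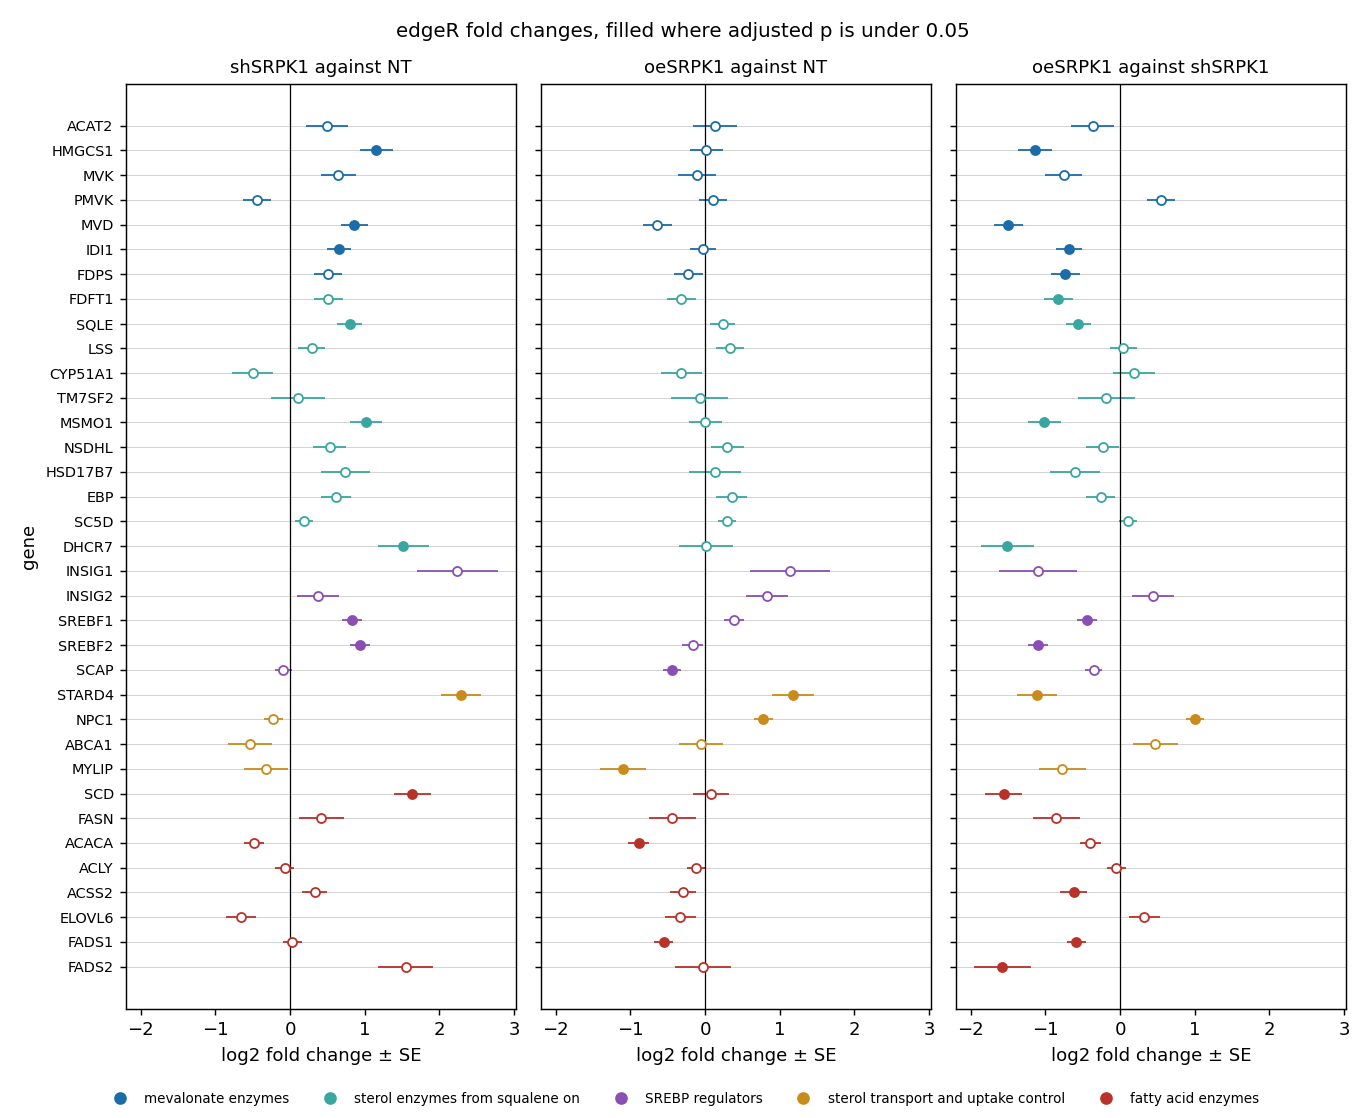
Log2 fold change ± SE of the 35 genes in the 3 comparisons, from edgeR on 2 libraries per group, filled where the adjusted p was under 0.05. Filled points lie to the right of 0 for 10 genes in shSRPK1 against NT and to the left for 15 genes in oeSRPK1 against shSRPK1.

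Among the mevalonate enzymes, 3 of 7 rose in shSRPK1 against NT, 0 changed in oeSRPK1 against NT, and 4 fell in oeSRPK1 against shSRPK1. The shares of all tested genes, in this order, were 5.43% higher, 20.6% either way and 11.3% lower. HMGCS1, the cytosolic HMG-CoA synthase (ENSG00000112972.13, GENCODE 29 on GRCh38 chr5:43289395-43313512), had 66.4 and 70.9 CPM in untreated cells, 186 and 119 with the hairpin and 61.0 and 79.6 with the expression vector. Both shSRPK1 libraries were above the other 4, while NT and oeSRPK1 overlapped. Relative to NT the shSRPK1 level was 2.23-fold, with a 95% interval of 1.56 to 3.19 and an edgeR adjusted p of 0.0250, and the oeSRPK1 level was 1.01-fold (0.704 to 1.46). MVD, the decarboxylase that makes isopentenyl diphosphate, had 17.0 and 19.4 CPM in untreated cells, 38.2 and 27.8 with the hairpin and 11.2 and 12.7 with the expression vector. Its 3 groups did not overlap, with shSRPK1 highest and oeSRPK1 lowest. It was 1.81-fold NT in shSRPK1 (edgeR adjusted p = 0.0285), 0.643-fold NT in oeSRPK1, which did not pass (edgeR adjusted p = 0.0556), and 0.354-fold in oeSRPK1 over shSRPK1 (edgeR adjusted p = 0.00333). IDI1, the isomerase of the isoprenoid diphosphates, had 25.0 and 23.4 CPM in untreated cells, 43.4 and 32.8 with the hairpin and 22.4 and 25.9 with the expression vector, again with both shSRPK1 libraries on top. Its log2 fold change in shSRPK1 over NT was 0.66 ± 0.16 (edgeR adjusted p = 0.0465), a call that upper-quartile scaling, thinning and the fit of these groups alone did not keep.

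FDPS, which joins isoprenoid units into farnesyl diphosphate, had 90.6 and 84.5 CPM in untreated cells, 143 and 106 with the hairpin and 63.9 and 87.9 with the expression vector. Only the difference between the transfected groups passed, with a log2 fold change of -0.73 ± 0.19 in oeSRPK1 over shSRPK1 (edgeR adjusted p = 0.0319). The thiolase ACAT2 and the kinase MVK passed no comparison, with 0.50 ± 0.28 and 0.65 ± 0.23 in shSRPK1 over NT. PMVK, the next kinase of the route, was the member of this group with a negative value, at 31.2 and 26.5 CPM in untreated cells against 22.1 and 20.2 with the hairpin (-0.44 ± 0.19, edgeR adjusted p = 0.164). As levels per kb, HMGCS1 over PMVK was 0.580 and 0.729 in untreated cells, 2.30 and 1.61 with the hairpin and 0.637 and 0.578 with the expression vector. With each library left out in turn, the median log2 fold change of the 7 enzymes stayed positive in shSRPK1 over NT. It ran from 0.44 (without shSRPK1 1) to 0.83 (without shSRPK1 2). In oeSRPK1 over shSRPK1 the median ran from -0.98 (without shSRPK1 2) to -0.54 (without oeSRPK1 1). Without either shSRPK1 library, MVD was also called lower in oeSRPK1 against NT.

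From squalene on, 3 of 11 sterol enzymes rose in shSRPK1 against NT, 0 changed in oeSRPK1 against NT, and 4 fell in oeSRPK1 against shSRPK1. The shares of all tested genes were again 5.43% higher, 20.6% either way and 11.3% lower. SQLE, the squalene epoxidase, had 46.0 and 46.8 CPM in untreated cells, 92.5 and 68.7 with the hairpin and 49.8 and 60.7 with the expression vector. The groups did not overlap, with NT lowest and shSRPK1 highest, and the ratio of shSRPK1 to NT was 1.74 (95% interval 1.33 to 2.27, edgeR adjusted p = 0.0277). MSMO1, the sterol methyl oxidase whose promoter is printed above, had 41.4 and 40.7 CPM in untreated cells, 100.1 and 65.8 with the hairpin and 35.9 and 47.8 with the expression vector. Both shSRPK1 libraries were higher than the rest, at 2.02-fold NT (1.43 to 2.86, edgeR adjusted p = 0.0291). DHCR7, the reductase of the last step of one arm of the route, had 20.1 and 18.8 CPM in untreated cells, 73.0 and 38.0 with the hairpin and 15.9 and 25.3 with the expression vector. Its level was 2.87-fold NT in shSRPK1 (1.62 to 5.08, edgeR adjusted p = 0.0450), and the shSRPK1 libraries themselves lay 1.92-fold apart. That call was lost under limma-voom, thinning and the fit of these groups alone. FDFT1, the squalene synthase, had 78.8 and 84.7 CPM in untreated cells, 139.5 and 93.7 with the hairpin and 60.3 and 72.1 with the expression vector. The 3 groups did not overlap, and the difference that passed was oeSRPK1 under shSRPK1 (-0.83 ± 0.19, edgeR adjusted p = 0.0218).

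The other 7 sterol enzymes passed in no comparison: LSS, CYP51A1, TM7SF2, NSDHL, HSD17B7, EBP and SC5D. Their log2 fold changes in shSRPK1 over NT ran from -0.50 ± 0.27 for the lanosterol demethylase CYP51A1 to 0.74 ± 0.33 for the sterol ketoreductase HSD17B7. HSD17B7 had 7.67 and 6.85 CPM in NT, 16.3 and 7.65 in shSRPK1, so only shSRPK1 1 stood apart. EBP, the sterol isomerase, had 12.4 and 13.1 CPM in untreated cells, 23.0 and 15.9 with the hairpin and 16.3 with the expression vector in each library. Its 0.61 ± 0.20 in shSRPK1 over NT did not pass (edgeR adjusted p = 0.0881). SC5D, the lathosterol oxidase, had the smallest SE of the group: it gave 0.19 ± 0.12 in shSRPK1 and 0.29 ± 0.12 in oeSRPK1 over NT, with neither past the test. With each library left out in turn, the median of the 11 enzymes in shSRPK1 over NT ran from 0.18 (without shSRPK1 1) to 0.83 (without shSRPK1 2). In oeSRPK1 over shSRPK1 it ran from -0.60 (without shSRPK1 2) to 0.02 (without shSRPK1 1). FDFT1 was called lower and LSS higher in oeSRPK1 against NT when either shSRPK1 library was left out.

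Of the 5 SREBP regulators, both transcription factor genes rose in shSRPK1 against NT, where 5.43% of all tested genes did. SREBF2, the factor that favours sterol genes (ENSG00000198911.10), had 73.0 and 75.0 CPM in untreated cells, 158 and 124 with the hairpin and 65.5 and 66.4 with the expression vector. The groups did not overlap, with shSRPK1 highest and oeSRPK1 lowest. The ratio was 1.91 for shSRPK1 over NT (95% interval 1.54 to 2.37, edgeR adjusted p = 0.00995) and 0.466 for oeSRPK1 over shSRPK1 (0.374 to 0.581, edgeR adjusted p = 0.00313). SREBF1, the factor that favours fatty acid genes, had 32.4 and 28.7 CPM in untreated cells, 57.8 and 50.6 with the hairpin and 38.9 and 41.1 with the expression vector. NT was lowest and shSRPK1 highest with no overlap, at 1.78-fold NT in shSRPK1 (1.44 to 2.19, edgeR adjusted p = 0.0127) and 1.31-fold in oeSRPK1, which did not pass (edgeR adjusted p = 0.0773). SREBF2 over SREBF1, per kb, was 2.39 and 2.77 in untreated cells, 2.91 and 2.61 with the hairpin and 1.79 and 1.72 with the expression vector, so the oeSRPK1 libraries had the lowest ratios.

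INSIG1, a retention protein and itself a target of SREBP, had 30.4 and 37.4 CPM in untreated cells, 242 and 78.8 with the hairpin and 76.0 and 73.7 with the expression vector. All 4 transfected libraries were above NT, but the shSRPK1 libraries lay 3.07-fold apart. Its ratio to NT was 4.72 in shSRPK1 with a wide interval of 1.79 to 12.4 (edgeR adjusted p = 0.0703) and 2.20 in oeSRPK1 (0.844 to 5.76, edgeR adjusted p = 0.204), so no call was made. DESeq2 did call INSIG1 higher in shSRPK1 against NT. INSIG2, the paralogue, had 50.6 and 64.4 CPM in untreated cells, 96.6 and 52.8 with the hairpin and 109.6 and 93.6 with the expression vector. It passed in no comparison in edgeR, with 0.83 ± 0.28 in oeSRPK1 over NT (edgeR adjusted p = 0.0856). DESeq2, no filter, limma-voom with group-specific spreads, thinning and the fit of NT and oeSRPK1 alone each called INSIG2 higher there. INSIG1 over INSIG2, per kb, was 0.650 and 0.629 in untreated cells, 2.71 and 1.62 with the hairpin and 0.750 and 0.852 with the expression vector. SCAP, the escort of the SREBP precursors, had 61.5 and 57.2 CPM in untreated cells, 53.5 and 58.0 with the hairpin and 42.5 and 45.0 with the expression vector. It fell by 0.44 ± 0.12 on the log2 scale in oeSRPK1 against NT (edgeR adjusted p = 0.0331), with both oeSRPK1 libraries under the other 4. With each library left out in turn, the median of the 5 regulators in shSRPK1 over NT ran from 0.73 (without shSRPK1 1) to 0.93 (without shSRPK1 2). In oeSRPK1 over NT it ran from 0.29 (without NT 2) to 0.47 (without NT 1). INSIG1, INSIG2 and SREBF1 were called higher in oeSRPK1 against NT once either shSRPK1 library was left out.

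**Figure D4:**
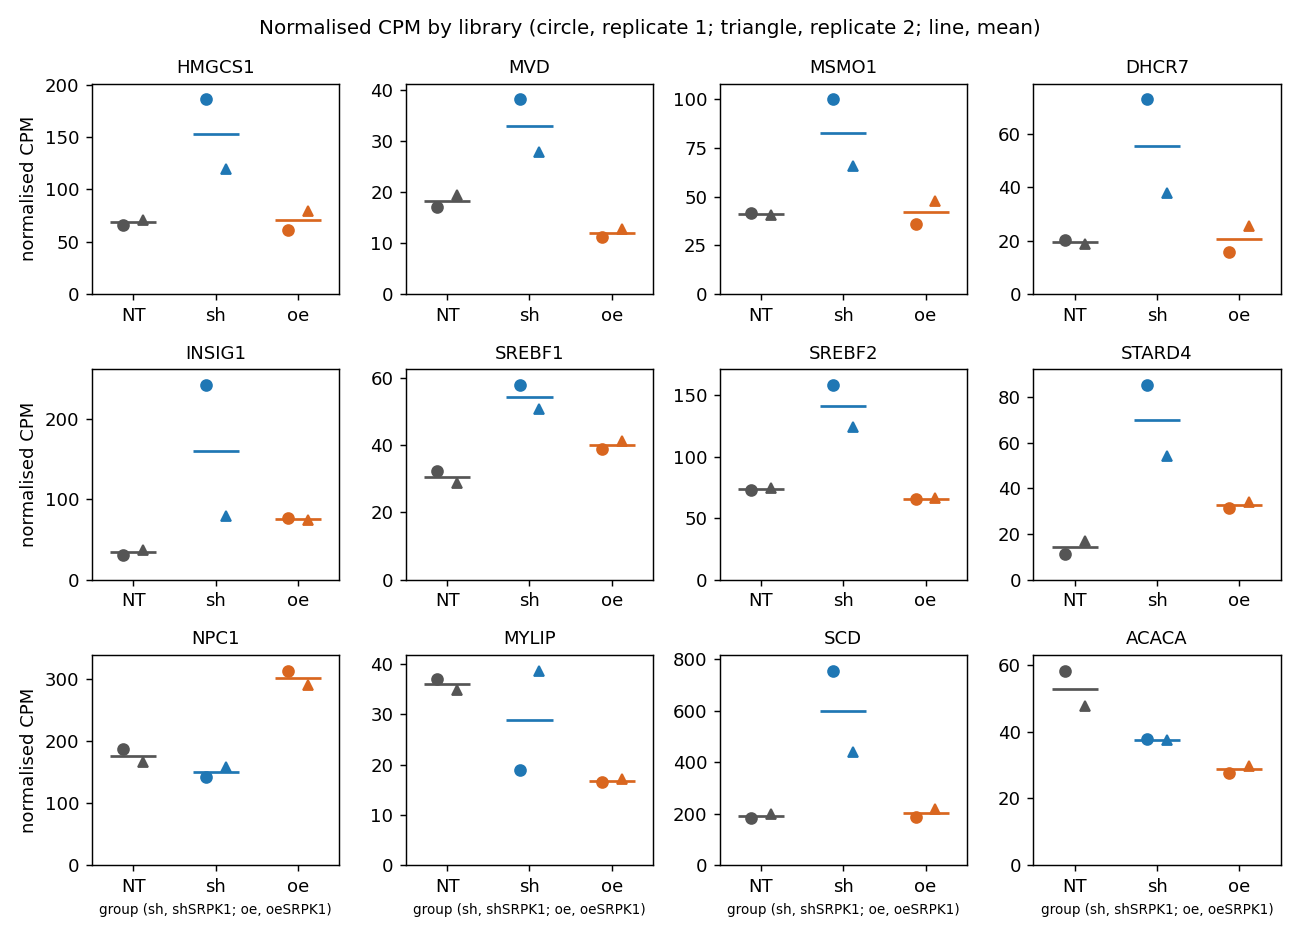
Normalised CPM of 12 of the genes by library (circle, replicate 1; triangle, replicate 2; line, mean of the group), each panel starting at 0. INSIG1 reached 242 CPM in shSRPK1 1 and 78.8 in shSRPK1 2, and NPC1 stood at 314 and 292 CPM in oeSRPK1 against 143 to 187 in the other libraries.

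The transport genes did not move as a group. STARD4, a soluble carrier that shuttles sterol between membranes (GRCh38 chr5:111496033-111512590), had 11.2 and 17.2 CPM in untreated cells, 85.3 and 54.2 with the hairpin and 31.3 and 33.9 with the expression vector. NT was lowest, oeSRPK1 between and shSRPK1 highest, with no overlap. It was 4.89-fold NT in shSRPK1 (95% interval 3.13 to 7.64, edgeR adjusted p = 0.00796), 2.26-fold NT in oeSRPK1 (1.44 to 3.56, edgeR adjusted p = 0.0264), and 0.463-fold in oeSRPK1 over shSRPK1 (edgeR adjusted p = 0.0261). NPC1, which lifts cholesterol out of the lysosome (GRCh38 chr18:23506184-23586898), had 187 and 166 CPM in untreated cells, 143 and 159 with the hairpin and 314 and 292 with the expression vector. Here both oeSRPK1 libraries were the high ones, at 1.72-fold NT (1.41 to 2.10, edgeR adjusted p = 0.00605) and 2.01-fold shSRPK1 (1.64 to 2.45, edgeR adjusted p = 0.00313). STARD4 over NPC1, per kb, was 0.106 and 0.184 in untreated cells, 1.06 and 0.607 with the hairpin and 0.177 and 0.206 with the expression vector.

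MYLIP, a ubiquitin ligase that marks lipoprotein receptors for breakdown, had 37.1 and 34.8 CPM in untreated cells, 19.0 and 38.6 with the hairpin and 16.6 and 17.1 with the expression vector. The oeSRPK1 libraries were below NT (-1.10 ± 0.31, edgeR adjusted p = 0.0482), and shSRPK1 1 lay near them while shSRPK1 2 lay with NT. The cholesterol exporter ABCA1 had 15.7 and 16.4 CPM in untreated cells, 7.40 and 15.01 with the hairpin and 15.7 and 14.99 with the expression vector, so only shSRPK1 1 stood apart, and no comparison passed. With each library left out in turn, the median of these 4 genes in shSRPK1 over NT ran from -0.61 (without shSRPK1 2) to 0.005 (without shSRPK1 1). In oeSRPK1 over NT it ran from 0.28 (without oeSRPK1 1) to 0.40 (without oeSRPK1 2). Among these leave-outs, the fall of MYLIP held only without shSRPK1 1 or shSRPK1 2.

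The fatty acid branch was uneven, with 1 of 8 enzymes higher in shSRPK1 against NT, 2 lower in oeSRPK1 against NT and 4 lower in oeSRPK1 against shSRPK1. Of all tested genes, 5.43% were called higher, 9.45% lower and 11.3% lower in these comparisons, in that order. Its median log2 fold change in shSRPK1 over NT was 0.18, against 0.57 for the 18 sterol enzymes, and the difference between the branches was not tested. SCD (GRCh38 chr10:100347124-100364834) had 184 and 199.9 CPM in untreated cells, 756 and 440.1 with the hairpin and 189 and 217 with the expression vector. Both shSRPK1 libraries stood above all others, at 3.11-fold NT (95% interval 2.10 to 4.61, edgeR adjusted p = 0.0124), while oeSRPK1 over NT was 1.05 (0.716 to 1.55). FADS2, the desaturase that starts the polyunsaturated route, had 54.0 and 55.4 CPM in untreated cells, 208 and 112 with the hairpin and 39.9 and 70.6 with the expression vector. Its 2.93-fold level in shSRPK1 over NT did not pass in edgeR (1.55 to 5.52, edgeR adjusted p = 0.0579) and was called by DESeq2. The fall in oeSRPK1 against shSRPK1 passed, at 0.335-fold (0.175 to 0.641, edgeR adjusted p = 0.0351).

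FADS1, the next desaturase and the neighbour of FADS2 on chromosome 11, had 134.5 and 122.5 CPM in untreated cells, 139.2 and 123.1 with the hairpin and 80.6 and 95.1 with the expression vector. Only the oeSRPK1 libraries stood apart, with a log2 fold change of -0.56 ± 0.13 over NT (edgeR adjusted p = 0.0233) and -0.59 ± 0.13 over shSRPK1 (edgeR adjusted p = 0.0187). FADS2 over FADS1, per kb, was 0.372 and 0.419 in untreated cells, 1.39 and 0.841 with the hairpin and 0.459 and 0.688 with the expression vector. Exons of the pair overlap on opposite strands by 490 bases, so some of their reads cannot be assigned without strand.

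ACACA, the carboxylase that makes malonyl-CoA, had 58.2 and 47.5 CPM in untreated cells, 37.8 and 37.4 with the hairpin and 27.7 and 29.7 with the expression vector. NT was highest and oeSRPK1 lowest with no overlap, and the difference from NT was -0.89 ± 0.14 in oeSRPK1 (edgeR adjusted p = 0.00575) and -0.49 ± 0.13 in shSRPK1, which did not pass (edgeR adjusted p = 0.0595). ACSS2, which makes acetyl-CoA from acetate, had 25.3 and 30.4 CPM in untreated cells, 39.5 and 30.5 with the hairpin and 21.4 and 24.8 with the expression vector, and fell in the comparison of the transfected groups (-0.62 ± 0.18, edgeR adjusted p = 0.0398). FASN, the fatty acid synthase, had 86.6 and 70.3 CPM in untreated cells, 132 and 76.98 with the hairpin and 46.2 and 72.1 with the expression vector. Both transfected groups of FASN overlapped NT, and no comparison passed. ACLY ranged only from 189.3 to 222.5 CPM over the 6 libraries, and its ratio to NT was 0.949 in shSRPK1 (0.780 to 1.15) and 0.918 in oeSRPK1 (0.754 to 1.12). The elongase ELOVL6 had 21.4 and 17.2 CPM in untreated cells, 14.2 and 10.0 with the hairpin and 15.8 and 14.5 with the expression vector, also with no call. With each library left out in turn, the median of the 8 enzymes in shSRPK1 over NT ran from -0.04 (without shSRPK1 1) to 0.31 (without shSRPK1 2). In oeSRPK1 over NT it ran from -0.42 (without oeSRPK1 2) to -0.18 (without oeSRPK1 1). In oeSRPK1 over shSRPK1 it ran from -0.79 (without shSRPK1 2) to -0.48 (without shSRPK1 1).

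Much of the spread in these genes lay between the shSRPK1 libraries. shSRPK1 1 was higher than shSRPK1 2 for 31 of the 35 genes, including all 7 mevalonate enzymes, all 11 sterol enzymes and all 8 fatty acid enzymes. The exceptions were SCAP, NPC1, ABCA1 and MYLIP. The median log2 gap was 0.46 over the 35 genes and -0.01 over all tested genes, and its median size regardless of sign was 0.54 against 0.27. Gaps over all genes in this paragraph used log2 CPM with a prior count of 2 added. Those over the 35 genes used plain ratios, so the measures are not quite alike. In the 18 sterol enzymes the median level over NT was 0.81 in shSRPK1 1 and 0.23 in shSRPK1 2, and in the fatty acid enzymes it was 0.30 and -0.04. The NT libraries lay closer, with replicate 1 higher for 19 genes and a median size of 0.10 against 0.13 for all genes. In oeSRPK1, replicate 2 was higher for 26 of 35 genes, including all 7 mevalonate enzymes, with a median size of 0.18 against 0.16 for all genes.

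**Figure D5:**
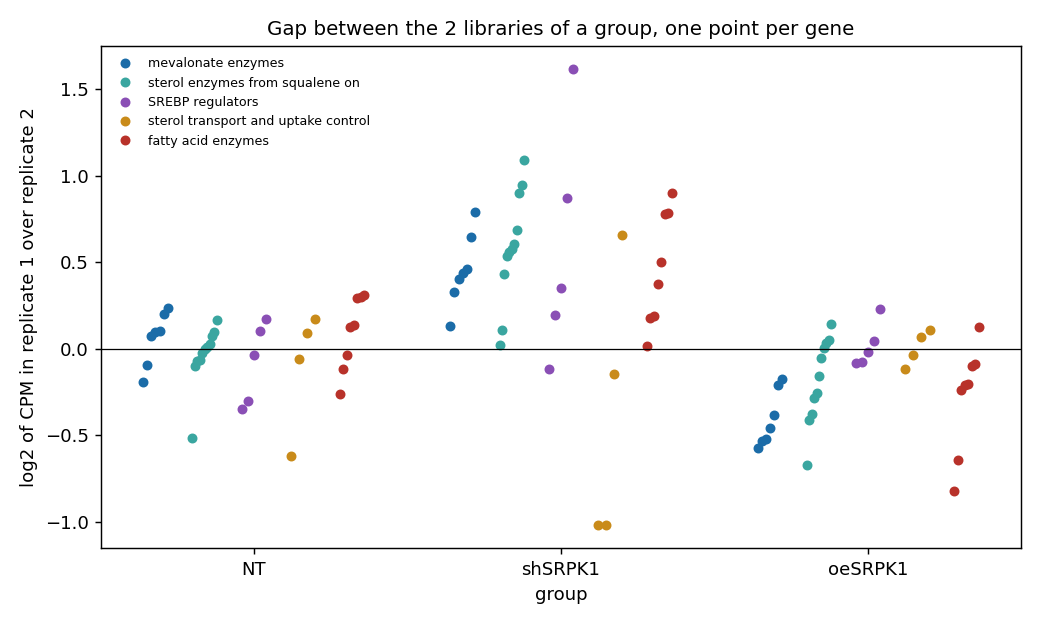
Log2 of normalised CPM in replicate 1 over replicate 2 within each group, 1 point per gene, coloured by gene group. In shSRPK1, 31 of 35 points lie above 0, with INSIG1 highest at 1.62 and ABCA1 and MYLIP near -1.02, while NT points stay within 0.62 of 0.

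SREBP processing genes, a list of 10 outside the set, had a median log2 fold change of -0.32 in shSRPK1 over NT and 0.26 in oeSRPK1 over shSRPK1. In shSRPK1 against NT 0 were higher and 2 were lower, SPRING1 among them, where 5.43% and 3.75% of all genes were called. In oeSRPK1 against shSRPK1, 4 of 10 rose and 0 fell, where 11.5% and 11.3% of all genes were called. SPRING1, needed for the cleavage of SREBP precursors, had 32.0 and 30.1 CPM in untreated cells, 19.6 and 20.9 with the hairpin and 34.5 and 33.6 with the expression vector (-0.61 ± 0.12 in shSRPK1 over NT, edgeR adjusted p = 0.0252). Both shSRPK1 libraries were the lowest of the 6 for SPRING1. The ubiquitin ligase RNF139 rose in oeSRPK1 against NT (0.46 ± 0.12, edgeR adjusted p = 0.0310) and against shSRPK1 (0.87 ± 0.12, edgeR adjusted p = 0.00382), and FAF2, which helps extract proteins from the endoplasmic reticulum, rose in oeSRPK1 against shSRPK1 (0.53 ± 0.11, edgeR adjusted p = 0.0140).

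Among 15 other genes of cholesterol uptake, transport and storage, 0 changed in shSRPK1 against NT at the threshold. An unadjusted edgeR p under 0.05 was found for 3 of the 15, a share under the 28.8% of all genes. In oeSRPK1 against NT, LIPA, OSBP and VLDLR rose and LRP8 and STARD5 fell, where 11.2% of all genes were called higher and 9.45% lower. VLDLR, a lipoprotein receptor, had 22.9 and 25.3 CPM in untreated cells, 22.0 and 18.8 with the hairpin and 50.8 and 52.7 with the expression vector (1.10 ± 0.13 over NT, edgeR adjusted p = 0.00228). LRP8, a receptor of the same family, had 117 and 95.4 CPM in untreated cells, 97.0 and 85.7 with the hairpin and 29.6 and 37.7 with the expression vector (-1.68 ± 0.17 from NT, edgeR adjusted p = 0.000976). The oeSRPK1 libraries were thus the highest of the 6 for VLDLR and the lowest for LRP8. The lysosomal lipase LIPA, which frees cholesterol for NPC1, gave 0.68 ± 0.14 in oeSRPK1 over NT (edgeR adjusted p = 0.0157), and the sterol carrier STARD5 gave -1.72 ± 0.34 (edgeR adjusted p = 0.0124). The STARD5 value is uncertain, since 69.6% of its exonic bases are shared with other genes, mostly IL16 on the opposite strand. It had 38 and 11 reads in oeSRPK1 1 and 2.

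On the list of 12 oxysterol and LXR genes, 9 were tested, and CH25H, CYP7B1 and CYP46A1 had too few reads. In shSRPK1 against NT 0 changed, with 2 at an unadjusted edgeR p under 0.05, again under the share of all genes. ABCG1, a cholesterol exporter switched on by LXR, had 8.45 and 7.63 CPM in untreated cells, 0.680 and 4.02 with the hairpin and 11.4 with the expression vector in each library. Both shSRPK1 libraries were lowest for ABCG1. Of these, shSRPK1 1 lay under shSRPK1 2, an order that ABCA1 and MYLIP shared. The ABCG1 difference passed in oeSRPK1 against shSRPK1 (2.34 ± 0.60, edgeR adjusted p = 0.0370) and not in shSRPK1 against NT (-1.84 ± 0.60, edgeR adjusted p = 0.105). SMPDL3A, a known LXR target, rose in oeSRPK1 against NT by 1.30 ± 0.27 (edgeR adjusted p = 0.0148). LPCAT3, an LXR-induced enzyme of phospholipid remodelling, fell by 0.63 ± 0.13 there (edgeR adjusted p = 0.0133), so the targets did not share a direction. LPCAT3 shares 65.6% of its exonic bases with EMG1 on the opposite strand.

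Fatty acid oxidation genes gave 0 rises and 6 falls among 22 in shSRPK1 against NT, and 1 rise and 8 falls in oeSRPK1 against NT. Of all tested genes, 5.43% were called higher and 3.75% lower in the first comparison, and 11.2% and 9.45% in the second. HADH, a dehydrogenase of the oxidation cycle, had 43.8 and 44.9 CPM in untreated cells, 30.9 and 32.0 with the hairpin and 20.4 and 23.5 with the expression vector (-1.04 ± 0.13 in oeSRPK1 over NT, edgeR adjusted p = 0.00242). PDK4, the kinase that spares glucose carbon from oxidation, had 13.3 and 14.1 CPM in untreated cells, 6.95 and 5.83 with the hairpin and 5.13 and 6.72 with the expression vector (-1.28 ± 0.21 in oeSRPK1, edgeR adjusted p = 0.00667). ETFDH, which passes electrons from the cycle to the respiratory chain, gave -0.96 ± 0.17 in oeSRPK1 over NT (edgeR adjusted p = 0.00916). Every transfected library was below NT for these 3 genes. PPARGC1A, a coactivator of oxidation genes, was the exception and rose by 1.70 ± 0.29 in oeSRPK1 over NT (edgeR adjusted p = 0.00744), at 6.03 and 7.76 CPM against 2.04 and 2.05.

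Other fatty acid synthesis and activation genes numbered 25, of which 21 were tested. In shSRPK1 against NT, FADS3 rose and ACSL4 and ACSL5 fell, where 5.43% of all genes were called higher and 3.75% lower. In oeSRPK1 against NT 2 rose and 6 fell, where 11.2% and 9.45% of all genes were called. ACSL5, an acyl-CoA synthetase, moved in opposite directions, with 11.8 and 12.3 CPM in untreated cells, 7.10 and 7.84 with the hairpin and 24.6 with the expression vector in each library (-0.69 ± 0.16 and 1.03 ± 0.15 over NT, edgeR adjusted p = 0.0351 and 0.00430). The elongase ELOVL1 rose by 0.66 ± 0.15 in oeSRPK1 over NT, and the elongase ELOVL5 and the dehydratase HACD3 fell by 0.50 ± 0.12 and 0.54 ± 0.11 (edgeR adjusted p = 0.0209, 0.0215 and 0.0165). FABP3, a fatty acid binding protein of muscle, had 0 reads in both NT libraries and 31 and 80 in the oeSRPK1 libraries, where muscle markers were also highest, and did not pass (edgeR adjusted p = 0.108). Of 11 glycerolipid genes, DGAT2, which makes triglyceride, fell in shSRPK1 against NT (-1.56 ± 0.29, edgeR adjusted p = 0.0203). It was the only call there, where 9.18% of all genes were called. In oeSRPK1 against NT AGPAT2 and PNPLA2 rose by 0.40 ± 0.11 and 0.42 ± 0.12 and GPAM and DGAT1 fell by 0.57 ± 0.16 and 0.68 ± 0.19 (edgeR adjusted p = 0.0376, 0.0404, 0.0390 and 0.0422). These are 2 of 11 each way, where 11.2% of all genes were called higher and 9.45% lower. Of 12 other mevalonate-derived and sterol genes, 0 changed in shSRPK1 against NT, with 3 at an unadjusted edgeR p under 0.05, also under the share of all genes. FAXDC2 and TMEM97 fell in oeSRPK1 against NT (-1.56 ± 0.25 and -1.25 ± 0.28, edgeR adjusted p = 0.00567 and 0.0211), and DHDDS, of dolichol synthesis, rose in oeSRPK1 against shSRPK1 (0.55 ± 0.12, edgeR adjusted p = 0.0172). Of all genes, 9.45% were called lower in the former comparison and 11.5% higher in the latter.

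Of the 100 genes tested on these 7 lists, 12 were called in shSRPK1 against NT, 32 in oeSRPK1 against NT and 25 in oeSRPK1 against shSRPK1, where 9.18%, 20.6% and 22.8% of all genes were. The shares in both comparisons with shSRPK1 lie near the background and are no result about the lists. When the libraries were dropped singly in the order NT 1, NT 2, shSRPK1 1, shSRPK1 2, oeSRPK1 1, oeSRPK1 2, 0, 0, 12, 12, 1 and 2 of the first, 3, 3, 32, 32, 1 and 13 of the second, and 12, 11, 25, 24, 2 and 9 of the third held.

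The promoter letters can be set beside the calls. Of the 10 genes that rose in shSRPK1 against NT, 9 had a promoter window, and 8 of these held CCAAT, SREBF1 being the exception. Of the 22 genes with a window that were not called there, 14 held it. MVK, EBP and NSDHL hold several CCAAT letters and were not called, and FADS1, PMVK and NPC1 hold none. The counts describe the windows and were not tested.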

How the data were processed

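The 6 libraries of T98G cells, 2 per group, were grouped by their labelled treatment. The authors deposited 1 table of whole-number read counts per gene for each library, not normalised. The submitters' processing notes name FastQC, Trimmomatic, STAR 2.5.3 and the build hg38. Which program counted reads, with which annotation and strand option, is not given in the sources used here. Entries that name no gene entered neither library sizes nor tests. They held 8.13% to 11.1% (no gene), 12.0% to 13.1% (several places) and 3.04% to 3.37% (ambiguous) of the reads.

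From the counts, edgeR 4.0.16 in R 4.3.3 (filterByExpr with a minimum count of 10 and minimum total of 15, TMM, glmQLFit with robust estimation, glmQLFTest) was fitted to all 6 libraries on 14732 genes with 99.8% of gene reads. A Benjamini-Hochberg adjusted p under 0.05 over all of them made a call, and "rose" and "fell" are used for calls only. The SE is the size of the log2 fold change over the square root of F, and intervals are 95%. Normalised CPM uses TMM library sizes, 0.5 was added before log2 levels per library, and CPM per kb divides by GENCODE 29 exonic length. Floors of 3 counts cover counting error only. The fit shares 1 spread, a biological coefficient of variation of 14.5%, while shSRPK1 replicates differed most. All members are described, and from each of 7 other lists at most 4 genes of lowest adjusted p in the comparison with most calls (both comparisons where tied), and genes behind counts of 5 or fewer, named after their values were seen. The members and lists were chosen with earlier results of these data known. A few genes of these pathways are not reported here. Alternatives were upper-quartile scaling, DESeq2 size factors, no filter, a stricter filter (CPM of 5 in 2 libraries), DESeq2 1.42.0, limma-voom (limma 3.58.1) with a shared or group-specific spread, only the groups compared, a replicate block, thinning to the shallowest library, an adjusted p under 0.01 and leaving out each library, which assumes that the group's lone library varies as the rest do. The steps were tested on simulated data, where the share of false calls exceeded the nominal rate when the spread differed between genes. In those data each gene had the same spread in every group, so the wider spread of shSRPK1 was not covered.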

Additional observations from a re-analysis of the deposited data

How the results depend on the processing

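With each library left out in turn, the members called ranged from 0 to 21 higher and 0 to 3 lower in shSRPK1 against NT, 0 to 6 higher and 0 to 7 lower in oeSRPK1 against NT, and 0 to 4 higher and 0 to 23 lower in oeSRPK1 against shSRPK1. A fit of only the groups compared called 1 member higher in shSRPK1 against NT, 6 higher and 7 lower in oeSRPK1 against NT, and 5 lower in oeSRPK1 against shSRPK1; it holds 4 libraries and does not share the spread of the group left out. At an adjusted p under 0.01, 2 were higher in shSRPK1 against NT, 1 higher and 1 lower in oeSRPK1 against NT, and 3 lower in oeSRPK1 against shSRPK1. Without a filter, 16 were higher and 2 lower in shSRPK1 against NT, and 2 were higher in oeSRPK1 against shSRPK1, as when thinned to the shallowest library (2). A limma-voom spread per group called 7 higher in oeSRPK1 against NT. Beyond what the settings' own construction shows, the cause was not tested. The replicate numbers were not shown to pair the samples (correlations of deviations 0.01, -0.02 and 0.02 over 14732 genes), and the replicate block gave 8 higher and 0 lower, 2 and 3, and 1 and 11 in the order above. IDI1 and DHCR7, SCAP, and FDPS, SQLE, SREBF1 and ACSS2 were not called under it in that order. Of 1674 values of single members under alternatives, 1443 stayed on their side of the threshold. Among those 1443 were 65 uncalled values that changed sign. A call was lost by 142 values, gained by 89 and reversed by 0. The other scalings moved the median of all genes by at most 0.05. The shallowest library, oeSRPK1 2, limits the genes with few reads: CYP51A1 had 9 there.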
